A study of Mus musculus with 48 samples.

Results

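Gene expression in the hypothalamus was compared between 8 Per3 4/4 mice and 8 wild-type (WT) mice, which together gave 16 of the 48 arrays of the series. The arrays were chosen by their titles, which name tissue, line and replicate. Per3 4/4 mice are homozygous for a knock-in in which exon 18 of mouse Per3 was replaced with human exon 18 coding for the 4-repeat form of the PER3 repeat polymorphism. WT mice carried both copies of mouse Per3. The knock-in was made in Bruce4 embryonic stem cells of C57BL/6 background with Thy1.1, chimeras were crossed to C57BL/6J, and a Cre expressed from the ROSA26 locus was bred out. Knock-in and WT mice came from separate homozygous breeding pairs, so the 2 groups also differ by line. All mice were adult and had been kept awake for 12 h from light onset on a light-dark cycle, and no undisturbed mice are among the arrays used here, so the comparison describes the sleep-deprived state alone. RNA from each dissected hypothalamus was labeled with Cy3 and hybridized to 1 whole-genome mouse array.

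PER3 belongs to the family of period proteins, which enter the nucleus with cryptochromes and inhibit transcription driven by CLOCK and BMAL1 at E-box sequences. Genes with E-boxes, such as Dbp and Nr1d1, are therefore read as output of the clock. The hypothalamus holds the suprachiasmatic nucleus, which times behavior, and cell groups that control arousal, feeding and hormone release. It borders the third ventricle, which is lined by ciliated ependymal cells and tanycytes, and is crossed by myelinated tracts. In bulk tissue, fewer cells of a type and less RNA per cell cannot be told apart.

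Levels are given as log2 signal relative to the 75th percentile of the same array, so 0 is the level of a probe at that percentile. A probe was called when the adjusted p of limma was under 0.05. Replicates of a genotype correlated at 0.971 to 0.993 over the tested probes. The 75th percentile of raw intensity was lower in Per3 4/4 (307 to 1575, median 924) than in WT (1206 to 1884, median 1522; exact permutation test, two-sided p = 0.00326), and Per3 4/4 replicates 6 and 7 were the dimmest arrays. Genotype and scan day overlapped in part. The 4 arrays of scan day 1 were all Per3 4/4, scan day 2 held 3 Per3 4/4 and 5 WT arrays, and scan day 3 held 1 Per3 4/4 and 3 WT arrays. WT replicate 8 carried pituitary RNA. Its summed level of 11 pituitary markers was 933, against 68.8 to 135 in the other WT and 66.1 to 85.1 in the Per3 4/4 arrays, with growth hormone (Gh) at 8.09 against a WT median of -4.87. None of these markers was called. WT replicate 3 stood far from the other WT arrays for several genes named here, and calls of named genes that were lost without it or without WT replicate 8 are given with that adjusted p.

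Per3 4/4 and WT hypothalamus differed at 4628 of 30735 probes (15.1%), of which 2534 were higher and 2094 lower in Per3 4/4. The typical called difference was small, with a median size of 0.42 on the log2 scale. Counted once per gene, by the brightest probe, 1302 of 15924 genes were higher (8.18%) and 1354 were lower (8.5%). With scan day as a block, which adjusts for days in the model of all 24 hypothalamus arrays, 229 probes were called, of which 217 were also called without the block. Of the genes, 77 were then higher (0.484%) and 57 lower (0.358%). No WT array was scanned on day 1, so the adjustment for that day rests on the knock-in arrays. These include the Per3 5/5 arrays, 4 of scan day 1 and 4 of scan day 3. The share of higher calls was 54.8% without the block and 42.7% after centring each array on its median, so the balance of directions depends on the scaling. Single differences given here are for the fit without the block unless the block is named.

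**Figure D1:**
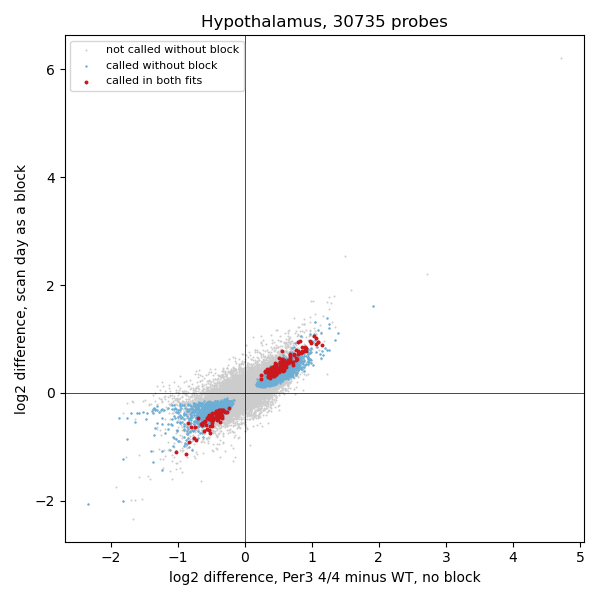
Log2 difference between Per3 4/4 and WT hypothalamus for each tested probe, without a block on the x axis and with scan day as a block on the y axis. Blue points were called without the block and red points in both fits. Of 4628 probes called without the block, 217 were called in both.

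Per3 itself, the targeted gene, was measured by 1 probe. It lay between -3.92 and -3.01 on the Per3 4/4 arrays (median -3.34) and between -3.82 and -3.38 on the WT arrays (median -3.58). The groups overlapped, and the difference of 0.17 ± 0.13 (SE) was not called (adjusted p = 0.349). Whether this probe lies in the replaced exon is not given in the sources used here, so the level does not check the genotype.

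The genes with the largest differences among those called both with and without the block fell into a few recognizable groups. On the higher side were genes on the same chromosome as Per3, myelin genes and signaling genes. On the lower side were ciliary genes, hypothalamic transcription factors and a retinoid enzyme. The plot of single arrays shows them. How many of all tested probes separate the genotypes fully is not given here. Full separation of genes chosen for large differences is therefore described only.

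**Figure D2:**
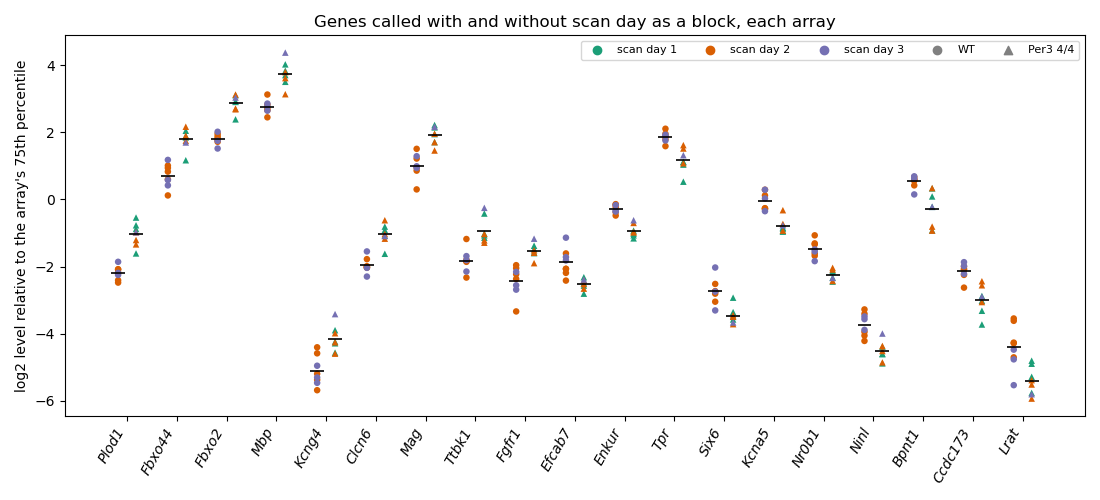
Log2 level relative to the 75th percentile for the 9 higher and 10 lower genes shown among those with the largest differences called in both fits. Circles are WT arrays, triangles are Per3 4/4 arrays, colors give the scan day, and lines are means of 8 arrays. Plod1, Fbxo2, Mbp and Fgfr1 do not overlap between genotypes on the higher side, nor do Enkur and Nr0b1 on the lower side. The genes were chosen for large differences, and the share of all probes without overlap is not given.

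The largest of these differences was at Plod1, a lysyl hydroxylase that modifies collagen. It lay between -1.61 and -0.54 on the Per3 4/4 arrays (median -0.98) and between -2.48 and -1.86 on the WT arrays (median -2.18), a 2.23-fold difference (log2 difference 1.15 ± 0.20, adjusted p = 0.0038). All 8 Per3 4/4 arrays lay above all WT arrays. Fbxo2, which codes for an F-box protein that recognizes glycoproteins for ubiquitination, ranged from 2.39 to 3.13 (median 2.92) against 1.52 to 2.02 (median 1.80), a log2 difference of 1.06 ± 0.15 (adjusted p = 0.00105). Its neighbor and paralog Fbxo44 ranged from 1.17 to 2.17 (median 1.87) against 0.12 to 1.18 (median 0.72), a log2 difference of 1.1 ± 0.20 (adjusted p = 0.00433). For Fbxo44, 7 of 8 Per3 4/4 arrays lay above all WT arrays. The chloride-proton exchanger gene Clcn6 differed by 0.92 ± 0.16 (adjusted p = 0.00373). Not every probe of these genes did so, since another Fbxo2 probe differed by 0.33 and was not called.

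These 4 genes lie 39 to 50 protein-coding genes from Per3 on chromosome 4. This grouping was seen in the values and was not planned. Among 101 tested genes within 60 places on either side of Per3, 19 were higher (against 8.18% of all genes) and 2 were lower, with a median difference of 0.16 against 0.02 over all genes. With scan day as a block, 4 were higher (against 0.484% of all genes) and none was lower. They were Plod1, Clcn6, Fbxo44 and Kcnab2, which lies 24 places from Per3 on its other side. Fbxo2 was counted here by its brightest probe, which differed by 0.33 and was not called in either fit. Pex14, a peroxisomal import gene between Per3 and Fbxo2, was lower by -0.69 ± 0.16 (adjusted p = 0.0118). In the cortex of the same mice, Plod1, Fbxo2, Fbxo44 and Clcn6 were higher by 0.91 to 1.11. In Per3 5/5 hypothalamus, which carries the 5-repeat form and was set against the same WT arrays, their differences of means from WT were 0.23 to 0.45, but the Per3 5/5 arrays did not lie together. Plod1 was at -1.56 to -1.03 on Per3 5/5 replicates 1 to 5 and at -2.62 to -2.43 on replicates 6 to 8, and Fbxo44 was at 1.11 to 1.88 and 0.33 to 0.45 on the same arrays. Replicates 1 to 4 were scanned on day 1 and replicates 5 to 8 on day 3. The difference between the knock-in lines was not called for Plod1, Fbxo2, Fbxo44 or Clcn6 (adjusted p = 0.227 for each).

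**Figure D3:**
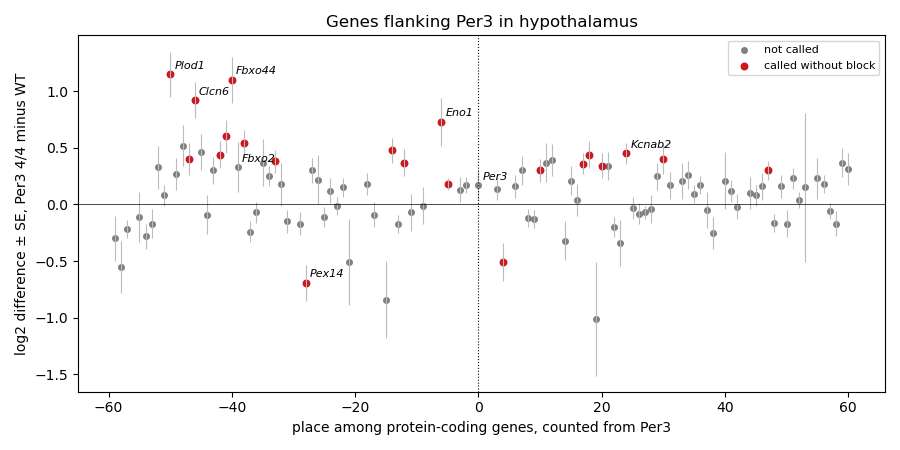
Log2 difference ± SE of the brightest probe of each protein-coding gene within 60 places of Per3, in the gene order of RefSeq, with Per3 at 0. Red points were called without a block. Plod1, Clcn6 and Fbxo44 lie between places -50 and -40.

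Many myelin and oligodendrocyte genes were higher in Per3 4/4. Of 27 tested, 13 were higher (48.1%, against 8.18% of all genes), none was lower, and the median difference was 0.32. With scan day as a block, 4 were higher by the brightest probe of the gene: Bcas1, Mobp, Plekhb1 and Cnp. Mbp, which codes for the basic protein that compacts the myelin sheath, ranged from 3.14 to 4.38 (median 3.75) against 2.45 to 3.13 (median 2.75), a log2 difference of 0.99 ± 0.15 (adjusted p = 0.00165). The probes of Mbp disagreed, because another was higher by 0.46 and another was lower by -0.27, both called. Mag, a myelin-associated glycoprotein of the inner wrap, differed by 0.91 ± 0.15 (adjusted p = 0.00283). The connexin gene Gjb1, whose protein joins oligodendrocytes, was higher by 0.81 ± 0.17 (adjusted p = 0.00727), and Sox10, the transcription factor of the lineage, by 1.26 ± 0.32 (adjusted p = 0.0171). Neither Gjb1 nor Sox10 was called with scan day as a block. The summed level of the list was 392 to 540 in Per3 4/4 and 302 to 430 in WT, so the groups overlapped. Of 12 genes of oligodendrocyte precursors, 1 was higher and 1 lower (8.33% each), near the shares over all genes.

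Astrocyte genes were also partly higher. Of 24 tested, 7 were higher (29.2%, against 8.18% of all genes) and none was lower, and with the block 1 was higher, against 0.484% of all genes. Apoe, the lipid carrier of astrocytes, was higher by 0.53 ± 0.10 (adjusted p = 0.00499), and Cbs, an enzyme of homocysteine metabolism, by 0.60 ± 0.11 (adjusted p = 0.00568). Without WT replicate 8 the astrocyte count was 4 higher and 1 lower. Of 20 microglial and 20 general neuronal genes, 1 of each list was higher (5%, against 8.18%) and none was lower (against 8.5% of all genes).

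Part of the genes of the motile cilium were lower. This list was added after the values were seen and so is described only. Of 91 tested, 17 were lower (18.7%, against 8.5% of all genes), 2 were higher and 72 were not called, and with the block 7 were lower (against 0.358% of all genes) and none was higher. Without WT replicate 3 the count was 11 lower. The clearest was Enkur, which codes for a protein of sperm and ependymal cilia. It lay between -1.16 and -0.62 on the Per3 4/4 arrays (median -0.98) and between -0.48 and -0.14 on the WT arrays (median -0.29), a log2 difference of -0.65 ± 0.08 (adjusted p = 0.00059). All 8 Per3 4/4 arrays lay below all WT arrays, and the call held with scan day as a block (adjusted p = 0.00857). Ccdc173 was lower by -0.85 ± 0.17 (adjusted p = 0.00627) and Efcab7, which the list holds by the form of its name and which is known from the primary cilium, by -0.64 ± 0.13 (adjusted p = 0.00722). The exceptions were Cfap100 and the dynein gene Dnaic1, which were higher by 0.40 and 0.35. Cfap100 was not called without WT replicate 8 (adjusted p = 0.0753). Of the ependymal and tanycyte list, Enkur was the 1 gene of 15 called. Only 1 of the 15 had a difference above 0, and the list's median difference was -0.16, and -0.27 with the block. The summed level of that list was 29.4 to 44.4 in Per3 4/4 (median 34.2) and 30.9 to 42.9 in WT (median 40.8), so the groups overlapped.

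**Figure D4:**
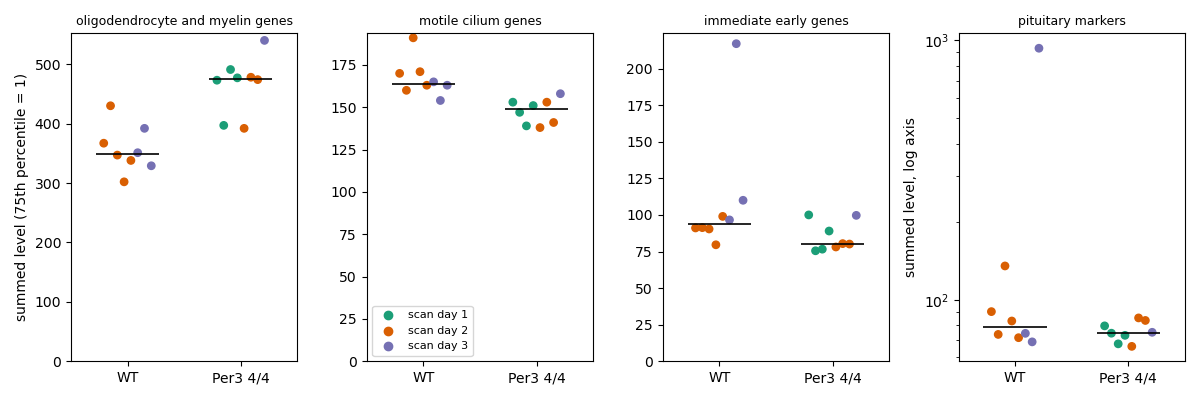
Summed linear level of 4 gene lists on each array, in units of the array's 75th percentile, by genotype. Points are arrays colored by scan day, lines are medians, and the pituitary panel has a log axis. The median is 476 against 349 for myelin genes and 149 against 164 for motile cilium genes in Per3 4/4 against WT, WT replicate 8 is at 933 for pituitary markers, and WT replicate 7 is at 217 for immediate early genes.

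Promoters of the ciliary genes were searched for GTTGCC, the half-site bound by RFX factors, on both strands (reverse complement GGCAAC). Of the 14 lower ciliary genes with a RefSeq promoter, 6 held it, against 12.7% of 27025 promoters of the same length. The sequences of 2 of them are shown from upstream of the start into the first transcribed bases, in build GRCm38.p6 of RefSeq, with the match in capitals. Fam183b was chosen after its values were seen, because it holds 2 matches, as does Efcab10, which is not shown.
Enkur, chr2:21205316-21205615, minus strand: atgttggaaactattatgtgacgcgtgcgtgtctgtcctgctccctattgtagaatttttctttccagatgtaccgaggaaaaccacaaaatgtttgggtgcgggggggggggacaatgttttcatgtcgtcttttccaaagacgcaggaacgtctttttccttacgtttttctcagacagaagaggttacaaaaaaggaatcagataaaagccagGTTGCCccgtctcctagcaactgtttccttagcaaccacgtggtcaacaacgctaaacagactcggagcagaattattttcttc
Fam183b, chr11:58801911-58802210, minus strand: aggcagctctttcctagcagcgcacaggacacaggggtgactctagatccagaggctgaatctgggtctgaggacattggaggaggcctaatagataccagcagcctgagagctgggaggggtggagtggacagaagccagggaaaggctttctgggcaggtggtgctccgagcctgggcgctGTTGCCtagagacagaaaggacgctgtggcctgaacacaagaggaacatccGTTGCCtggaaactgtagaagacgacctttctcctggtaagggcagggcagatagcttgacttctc
A match of letters describes the window and does not show binding. Ciliary genes not called lower were not counted, so the share does not set the lower genes apart from other ciliary genes.

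Among clock genes, 3 of 24 were higher and 3 were lower (12.5% each, against 8.18% and 8.5% of all genes), and none was called with the block. Dbp, an output gene driven from E-boxes, lay between 4.88 and 5.24 on the Per3 4/4 arrays (median 5.07) and between 4.48 and 5.14 on the WT arrays (median 4.61), a log2 difference of 0.38 ± 0.09 (adjusted p = 0.0128). The groups overlapped. Nr1d1, which codes for the repressor REV-ERBα, was higher by 0.59 ± 0.16 (adjusted p = 0.0205), and Bhlhe41, which codes for a repressor of the E-box, by 0.37 ± 0.10 (adjusted p = 0.0171). On the lower side, the activator gene Clock differed by -0.44 ± 0.11 (adjusted p = 0.0165), Nfil3 by -0.36 ± 0.10 (adjusted p = 0.0264) and Nr1d2, the paralog of Nr1d1, by -0.33 ± 0.10 (adjusted p = 0.0361). A second Nfil3 probe was at 0.22 and was not called. Further probes of Clock (-0.35) and Nr1d1 (0.67) were called. Others of Clock (-0.14), Nr1d1 (0.46) and Bhlhe41 (0.31) were not. The E-box CACGTG, which is its own reverse complement, was found in the promoter of 1 of these 6 genes, Bhlhe41, against 7.24% of all promoters, and that promoter is shown with the E-box in capitals.
Bhlhe41, chr6:145865371-145865670, minus strand: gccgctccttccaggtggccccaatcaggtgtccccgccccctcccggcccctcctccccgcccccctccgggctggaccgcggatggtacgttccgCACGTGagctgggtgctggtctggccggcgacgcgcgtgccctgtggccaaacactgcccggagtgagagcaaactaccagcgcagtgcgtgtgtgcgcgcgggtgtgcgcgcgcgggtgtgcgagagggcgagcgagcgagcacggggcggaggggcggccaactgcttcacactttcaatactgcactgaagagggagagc
No match says only that these letters are not in this window.

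Some immediate early genes, which neurons induce within minutes of activity, were lower. Of 29 tested, 8 were lower (27.6%, against 8.5% of all genes), 21 were not called and none was higher, and none was called with scan day as a block. Egr2 was lower by -0.81 ± 0.24 (adjusted p = 0.0293) and Fosl2 by -0.56 ± 0.15 (adjusted p = 0.019). A second Fosl2 probe was at -0.08 and was not called. Egr1 and Fos, which belong also to the list of genes known to respond to sleep loss, were lower by -0.49 and -0.41. Egr2 was not called without WT replicate 3 (adjusted p = 0.0558) or WT replicate 8 (adjusted p = 0.051), nor Fos without WT replicate 8 (adjusted p = 0.0576). Without WT replicate 3 the list had 5 lower and without WT replicate 8 it had 6, and with normexp background it had 1. The summed level was 217 in WT replicate 7, against 79.6 to 110 in the other WT arrays and 75.5 to 100 in Per3 4/4.

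Of 34 hypothalamic transcription factors, 6 were lower (17.6%, against 8.5% of all genes), 1 was higher and 27 were not called, and 15 had a difference above 0. Nr0b1 (DAX1), an orphan nuclear receptor of the ventromedial hypothalamus and pituitary gonadotropes, lay between -2.45 and -2.04 on the Per3 4/4 arrays (median -2.24) and between -1.84 and -1.07 on the WT arrays (median -1.52), a log2 difference of -0.76 ± 0.14 (adjusted p = 0.00542). All 8 Per3 4/4 arrays lay below all WT arrays. Six6, a homeobox gene of the developing hypothalamus and suprachiasmatic nucleus, was lower by -0.72 ± 0.18 (adjusted p = 0.0168). Both stayed called with scan day as a block. With normexp background Nr0b1 differed by -0.51 and Six6 by -0.27. Sim1, which specifies paraventricular neurons, was lower by -1.52 ± 0.50 (adjusted p = 0.0444), but by -0.35 with the block (adjusted p = 0.277), and was not called without WT replicate 3 (adjusted p = 0.0717) or WT replicate 8 (adjusted p = 0.0579). Onecut2 was higher by 0.36 ± 0.10 (adjusted p = 0.0229). Another Onecut2 probe was higher by 0.38 and called, and another was at -0.4 and was not called.

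Of 32 neuropeptide precursors, 4 were higher (12.5%, against 8.18% of all genes) and 1 was lower (3.12%, against 8.5% of all genes), and none was called with the block. Rln3 (relaxin-3) was higher by 0.73 and Ucn3 (urocortin-3) by 0.71, and Nmb (neuromedin B) was lower by -0.30. Without WT replicate 3 the precursors had 2 higher and 3 lower, and without WT replicate 8 they had 2 higher and 1 lower. Neither Rln3 nor Ucn3 was called without WT replicate 8 (adjusted p = 0.0818 and 0.062) or without WT replicate 3 (adjusted p = 0.0803 and 0.0528). Among 43 receptors, 4 were higher and 4 lower (9.3% each), near the 8.18% and 8.5% of all genes. The counts were 2 higher and 6 lower without WT replicate 3, and 2 higher and 4 lower without WT replicate 8. The kisspeptin receptor gene Kiss1r ranged from -3.02 to -2.58 (median -2.89) against -3.74 to -3.26 (median -3.59), a log2 difference of 0.67 ± 0.13 (adjusted p = 0.00542), with all Per3 4/4 arrays above all WT arrays and a call with the block (adjusted p = 0.0489). Hcrtr1, a receptor of the wake-promoting orexins, was higher by 0.56 ± 0.18 (adjusted p = 0.0398), but was not called without WT replicate 3 (adjusted p = 0.072) or WT replicate 8 (adjusted p = 0.0607). Npy2r and Calcr, receptors of peptide YY and calcitonin, were lower by -0.39 and -0.43, and a second Calcr probe at 0.34 was not called.

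Of 33 synaptic vesicle genes, 10 were higher (30.3%, against 8.18% of all genes) and none was lower, and with the block 1 was higher, although the list's median difference was 0.02, and -0.01 after median centring. Vamp1, a vesicle SNARE, ranged from 2.99 to 3.40 (median 3.23) against 2.29 to 2.88 (median 2.56), a log2 difference of 0.65 ± 0.08 (adjusted p = 0.00059), and was called with the block (adjusted p = 0.00857). Syngr3 was higher by 0.79 ± 0.23 (adjusted p = 0.0267). Potassium channels moved both ways, with 10 of 73 higher (13.7%, against 8.18% of all genes) and 4 lower (5.48%, against 8.5%). With the block, 2 were called in each direction. Kcng4, a modifier subunit of voltage-gated channels, was higher by 0.97 ± 0.20 (adjusted p = 0.00708), and Kcna5, a voltage-gated channel, was lower by -0.74 ± 0.11 (adjusted p = 0.0017).

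Markers of the striatum, which borders the dissected block, were partly higher, with 4 of 13 higher (30.8%, against 8.18% of all genes) and 1 lower, and none called with the block. The dopamine-signaling gene Ppp1r1b (DARPP-32) was higher by 0.95 ± 0.19 and Adcy5 by 0.47 ± 0.11, whereas Foxp1 was lower by -0.53 ± 0.15. The probes of Foxp1 disagreed, because a second was at 0.24 and was not called. A second Adcy5 probe was higher by 0.46 and called. The summed level of these markers was 21.3 to 30.7 in Per3 4/4 and 19 to 27.2 in WT. Their part in the other differences was not tested.

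Glycolysis enzymes were higher more often than lower. Of 20 glycolysis enzymes, 11 were higher (55%, against 8.18% of all genes) and 2 were lower (10%, near the 8.5% of all genes). Their median difference was 0.28, and with the block 2 were higher (against 0.484% of all genes). Pfkl, a phosphofructokinase subunit, was higher by 0.57 ± 0.11 (adjusted p = 0.00581) and the enolase gene Eno1, which lies 6 places from Per3, by 0.73 ± 0.21 (adjusted p = 0.0235). Hk2, a hexokinase, and Pdk1, which limits entry into the mitochondrion, were lower by -0.65 and -0.42. Pdk1 was not called without WT replicate 3 (adjusted p = 0.0799) or WT replicate 8 (adjusted p = 0.0557). A second Pdk1 probe was at -0.14 and was not called. Among 82 subunits of oxidative phosphorylation, 10 were higher (12.2%, against 8.18% of all genes) and 1 was lower, with a median of 0.08, and none was called with the block. Cox6a1 and Cox8a of complex IV were each higher by 0.36, and Uqcrb of complex III was lower by -0.33 (without WT replicate 3, adjusted p = 0.0585). Without WT replicate 8 that count was 6 higher.

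Splicing factors, nuclear pore genes and genes of the chaperone list were lower more often than higher. Of 67 splicing factors, 13 were lower (19.4%, against 8.5% of all genes) and 6 higher, and none was called with the block. Srsf7 was lower by -0.55 ± 0.14 and U2af2, which recognizes the end of the intron, was higher by 0.61 ± 0.17. Another Srsf7 probe was lower by -0.5 and called, and another was at 0.07 and was not called. Of 26 nuclear pore genes, a list added after the values were seen, 7 were lower (26.9%, against 8.5% of all genes). Of the same list, 1 was higher (3.85%, against 8.18% of all genes), and with the block 2 were lower (against 0.358% of all genes). Tpr, the basket protein of the pore, was lower by -0.69 ± 0.13 (adjusted p = 0.00472) and stayed called with the block. Nup88 and Nup214 were lower by -0.49 and -0.45, while Aaas was higher by 0.57. Second probes of Tpr and Nup214 were at -0.26 and 0.3 and were not called. Among 334 Zfp zinc-finger genes, 64 were lower (19.2%, against 8.5% of all genes) and 19 higher (5.69%, against 8.18%). With the block 1 was called in each direction. Of 22 genes listed with the chaperones of the endoplasmic reticulum, 6 were lower (27.3%, against 8.5% of all genes) and 1 was higher. Not all of the list are chaperones, among them Sel1l and Ddit3. With the block 1 of the list was lower, Sel1l (adjusted p = 0.0435). Hyou1, a chaperone of the Hsp70 family, was lower by -0.62 ± 0.12 (adjusted p = 0.00499). Sel1l, of the degradation complex, was lower by -0.36 at 1 probe and higher by 0.35 at another, and Ddit3 (CHOP) was higher by 0.28. Without WT replicate 3, 3 genes of this list were lower.

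**Figure D5:**
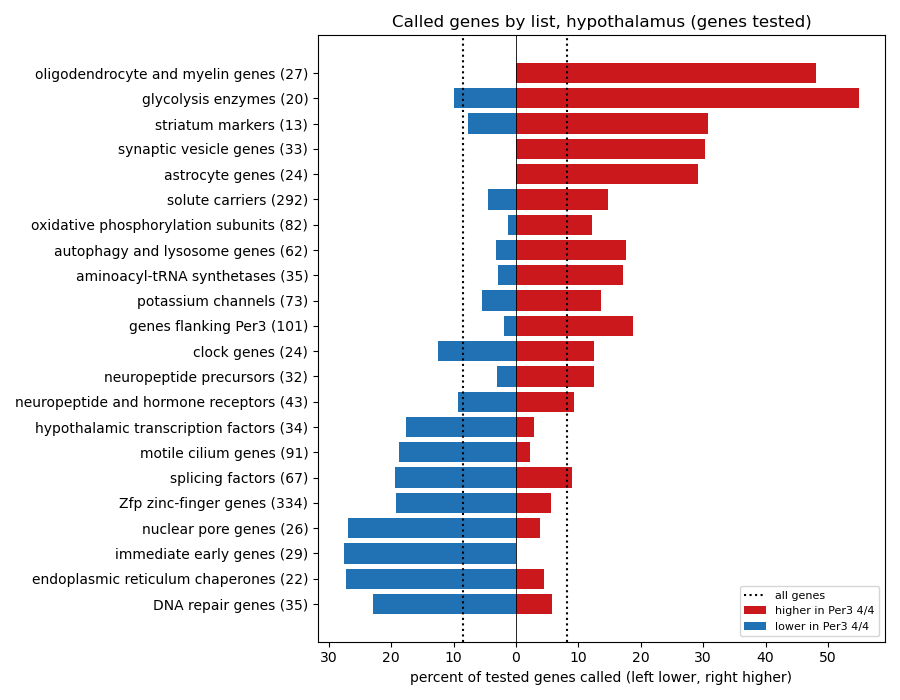
Percent of the tested genes of each list called higher (right) or lower (left) in Per3 4/4 without a block, with the number of genes tested in parentheses and dotted lines at the shares over all genes (8.18% and 8.5%). Myelin genes (48.1%) and glycolysis enzymes (55%) lie furthest to the right.

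Other leading genes belonged to no list. Fgfr1, a fibroblast growth factor receptor, was higher by 0.89 ± 0.16 (adjusted p = 0.00452) with no overlap between genotypes, and Ttbk1, a tau kinase of neurons, by 0.90 ± 0.17 (adjusted p = 0.00487). A second Ttbk1 probe was at 0.48 and was not called. Lrat, which esterifies retinol for storage, ranged from -5.94 to -4.81 (median -5.46) against -5.54 to -3.55 (median -4.39), a log2 difference of -1.02 ± 0.23 (adjusted p = 0.0101), and overlapped between genotypes. Bpnt1, a nucleotide phosphatase sensitive to lithium, was lower by -0.83 ± 0.16 (adjusted p = 0.00647), and Ninl, a centrosomal protein, by -0.80 ± 0.15 (adjusted p = 0.00542). With normexp background the differences of the dim probes of Lrat and Ninl nearly vanished, at -0.04 and -0.1. Those of Bpnt1, Fgfr1 and Ttbk1 were then -0.73, 0.81 and 0.81.

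Among called genes well above background on at least 6 arrays of both genotypes, the 3 with the largest difference in each direction were not called with the block. Slx1b, a subunit of a structure-specific nuclease, lay between -4.14 and 0.74 in Per3 4/4 and between -0.07 and 0.94 in WT, a log2 difference of -2.33 ± 0.76 (adjusted p = 0.0424), and another Slx1b probe was higher by 0.36. Ddx3y, a Y-linked RNA helicase, ranged from -5.77 to -2.80 against -3.07 to -1.54 at 1 probe (log2 difference -1.69 ± 0.56, adjusted p = 0.0436), while the other probe differed by -0.04. With the block the first probe differed by -0.37. Tgds was lower by -1.63 ± 0.50 and by -0.53 with the block. Slx1b, Ddx3y and Tgds were not called without WT replicate 3 (adjusted p = 0.0613, 0.0771 and 0.0502) or WT replicate 8 (adjusted p = 0.0643, 0.0568 and 0.0516). On the higher side, beside Sox10, the nucleoside transporter gene Slc29a3 differed by 1.39 ± 0.34 and 4930432K21Rik by 1.26 ± 0.39, the latter with an adjusted p of 0.0574 without WT replicate 8. Second probes of Slc29a3 and 4930432K21Rik, at 0.33 and 0.3, were not called. The named probes were dim, with WT medians of -6.18 and -6.27, and each was well above background on 6 of 8 WT arrays.

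The same mice gave cortex arrays, so the genotype difference could be compared between tissues. A test of hypothalamus minus cortex called 1 of 31228 probes (0.0032%), which has no gene symbol here, and 1562 had an unadjusted p under 0.05. Several genes were nevertheless called in hypothalamus and not in cortex, among them Enkur (-0.65 and -0.20) and Vamp1 (0.65 and 0.10), and their tissue difference was not called (adjusted p = 0.925 for both). Against Per3 5/5 hypothalamus, Per3 4/4 differed at 0 of 30735 probes (0%) with limma, with 4983 at an unadjusted p under 0.05 and a smallest adjusted p of 0.172. A p that misses the threshold does not show that the knock-in lines are alike.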

How the data were processed

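RNA was measured on 48 arrays of hypothalamus and cortex from 24 mice. Per the file headers, the authors deposited background-corrected intensity values from Agilent Feature Extraction 10.7.1.1, with quality calls per spot, and a table of log2 values per array whose normalization the study's methods give as a shift to the 75th percentile. The array design is annotated on mm9.

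Control spots and outlier spots were left out, spots of 1 probe were averaged, and log2 intensity minus the log2 75th percentile of the array was used. A probe was kept where 6 or more of the 8 arrays of some genotype were well above background. Of 41174 probes, 67.2% were named through RefSeq accessions. A model over the 24 hypothalamus arrays was fitted with limma 3.58.1 in R 4.3.3, with Benjamini-Hochberg adjustment over all tested probes. The p-values measure the spread between mice of a line. The number of arrays limits the precision.

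The members and gene lists were chosen with earlier results of these data known, and 2 lists and the genes flanking Per3 were added after the values were seen. The genes named are Per3, the 10 per direction with the largest difference in the fit without a block among those called with and without scan day as a block, 3 per direction called without it, up to 2 called genes per list and direction, and all called clock genes. Some genes that this rule names are not reported here. Of the 71 lists, those with no remark in the text are not described. Alternatives were scan day, slide and replicate number as blocks, array brightness as a covariate, other scalings, filters and background corrections, the authors' log2 table, the methods' t-test, and each array left out. Normexp used median signals with an offset of 50, as the files used here hold no mean signal column. The authors' rank product analysis was not repeated. Scripts were tested on simulated data. Promoter sequences and gene order came from RefSeq (GRCm38.p6).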

Additional observations from a re-analysis of the deposited data

Results flagged for a closer look

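Single arrays lay far from the rest of their genotype in 13 of 140 groups of 8 arrays examined for the named genes, and chance alone gives about 1 in 20. WT replicate 3 was the far array for Nr1d2 (highest, 1.79), Uqcrb (highest, 5.02), Srsf7 (highest, 1.57), Nup88 (highest, 3.48), Ddx3y (highest, -1.54), U2af2 (lowest, -2.12) and Eno1 (lowest, 0.90). The dim array Per3 4/4 replicate 6 was lowest for Adcy5 (-0.53) and Eno1 (2.02) and highest for Kcna5 (-0.32). Per3 4/4 replicate 2 was lowest for Fbxo44 (1.17). Per3 4/4 replicate 3 was highest for Six6 (-2.93), and Per3 4/4 replicate 5 was lowest for Apoe (7.38). The genotype difference differed between hypothalamus and cortex at 1 probe with no symbol, A_52_P876147, by -1.13 ± 0.17 on the log2 scale (limma, adjusted p = 0.0303).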

How the results depend on the processing

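Of the 70 genes named, all kept their direction under the 31 alternatives that could be fitted for them, although many lost their call. Of all probes called without the block, 96.4% kept their direction with slide as a fixed block, 97.7% with normexp background and 99.9% to 100% otherwise. Kept direction therefore does not set the named genes apart. Under the scan day block, 23 of 70 stayed on the same side of the threshold. That count includes the genes named because they were called in both fits, so it was partly fixed by the naming rule. The number of probes called between Per3 4/4 and WT fell from 4628 to 229 with scan day as a block, to 9 on the days holding both genotypes with the block, to 5 on scan day 2 alone and to 0 with slide as a fixed block (2166 at an unadjusted p under 0.05). It was 2962 with slide as a random block, 2076 with array brightness as a covariate and 1872 with normexp background. Leaving out 1 array at a time gave 2111 to 6728. The count fell by over 1.5 times without Per3 4/4 replicate 1 (2111), 2 (2806), 3 (2538) or 4 (2816), the arrays of scan day 1, and without WT replicate 1 (2711). It was 3720 without WT replicate 8, and 6219 without both dim arrays, an alternative chosen after seeing the data. The methods' t-test called 6315 probes after Benjamini-Hochberg adjustment. With normexp background, called genes fell from 11 to 5 higher for glycolysis, 10 to 4 higher for synaptic vesicles, 17 to 5 lower for motile cilia, 8 to 1 lower for immediate early genes and 64 to 18 lower for Zfp genes, whereas the myelin count was 11 higher against 13. The causes were not tested.

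The replicate block called 2970 probes. Replicate numbers mark no shared litter or day in the labels, the deviations of same-numbered arrays correlated at -0.2 to 0.12, and 1 of 8 Per3 4/4 arrays correlated best with its own number.

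For the difference between tissues, 1 probe was called, against 0 with scan day as a block, 0 with quantile normalization, 89 with normexp background and 6 with mouse as a random block. Leaving out 1 mouse at a time gave 0 to 1.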
